A study of Cricetulus griseus with 10 samples.

Results

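The step from passage 2 to passage 4 was the second of 4 steps sampled while CHO-K1 cells were adapted to growth in suspension in the serum-free medium SFM4CHO. CHO-K1 is a wild-type line derived from the ovary of the Chinese hamster and a common parent of lines that make therapeutic proteins. RNA was sequenced at passages 0, 2, 4, 6 and 10 (P0, P2, P4, P6 and P10), with 2 libraries each. The 4 libraries of P2 and P4 were compared here, out of 10 in all. They share the cell line, the genotype and the medium, and differ in the label only by passage. Nothing in the labels tells whether 2 libraries of a passage came from separate cultures; a p-value therefore rests on the spread between these libraries alone, and that spread may be technical.

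Attached fibroblast-like cells are surrounded by a matrix that they make themselves. Type IV collagen and laminins form the sheet-like basement membrane, periostin, lumican and thrombospondin belong to the looser interstitial matrix, and integrins link both to the actin cytoskeleton. Cells moved off a surface lose those contacts and take up a rounded shape. Serum also supplies growth factors, lipids and carrier proteins, and a serum-free medium replaces only some of these. Natriuretic peptides are hormones made mainly by heart muscle under stretch.

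The P2 libraries held 11157386 and 11124524 reads assigned to genes, and the P4 libraries 12465671 and 10399192. Log2 values of the duplicates correlated across genes at 0.989 in P2 and 0.992 in P4, and the median gene differed between duplicates by 0.15 and 0.13 on the log2 scale. At P6 (0.956) and P10 (0.930) duplicates were less alike. A single feature, Dym, took between 8.53% and 12.7% of the normalised reads in the 4 libraries. The mesenchymal genes Vim (mean 16139 normalised reads at P2 and 14922 at P4) and Col3a1 (42947 and 41788) were high. The epithelial keratin genes Krt18 and Krt14 were at 0 in all 4 libraries and Krt8 had at most 4.95 normalised reads. Other markers went the other way. Of the mesenchymal genes, Thy1 was at 0 in all 4 libraries and Col1a2 had at most 1.17 normalised reads. Of the epithelial genes, Cdh1 had 212 and 240 at P2 and 207 and 164 at P4, and Grhl2 had means of 38.9 and 30.5.

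Between P2 and P4 the genes with the clearest rises included Nppa and Nppb, which encode secreted hormones, and the type IV collagen chain Col4a1, and those with the clearest falls included Postn (periostin), Lum (lumican) and the cytokine gene Il17b. Of 13521 features tested with limma on the 4 libraries, 569 (4.21%) passed an adjusted p of 0.05, of which 373 were higher at P4 (2.76% of those tested) and 196 lower (1.45%). A feature past this threshold is described below as called. Most of these differences were small, with a median of 0.51 on the log2 scale among the rises and -0.53 among the falls, and 61 features (0.451%) were both called and at least 2-fold apart, 41 upward and 20 downward. The median over all tested features was -0.01, and 67.8% of them lay within 0.25 of 0. The P2 and P4 libraries did not overlap in 7014 features (51.9%), so that a lack of overlap with 2 libraries a group is common and is no result on its own. Among features with a gene symbol, none without a read in both libraries of 1 passage reached 10 normalised reads in both of the other. By that measure the step held no gene with a symbol that was switched fully on or off. Features without a symbol were not searched in this way.

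The count of called features depends on how the spread is estimated. When all 10 libraries shared 1 estimate of the spread, which the wide duplicates of P6 and P10 enter, limma called 0 features (0%), with 285 at an unadjusted p under 0.05, and the lowest adjusted p was 0.10. On reads recovered from the deposited values of the 4 libraries, edgeR called 572 and DESeq2 464, and 387 features were called by all 3 tools. DESeq2 gave some features, Lum among them, no adjusted p, and these count as not called by it. Leaving out 1 library at a time gave 1047 calls without P2 replicate 1, 1640 without P2 replicate 2, 452 without P4 replicate 1 and 211 without P4 replicate 2, with 162 of the 569 called in each of these fits. Without a trend of the spread on the level, limma called only Nppa (adjusted p = 0.00877). Called features also had more reads than others, from 0.814% of features with a mean under 50 to 12.98% of those in the top class (a mean over 5000). Of the 110 called genes that the rule for named genes picked, 68 were also called when the P0 libraries joined the fit, and 42 were not.

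**Figure D1:**
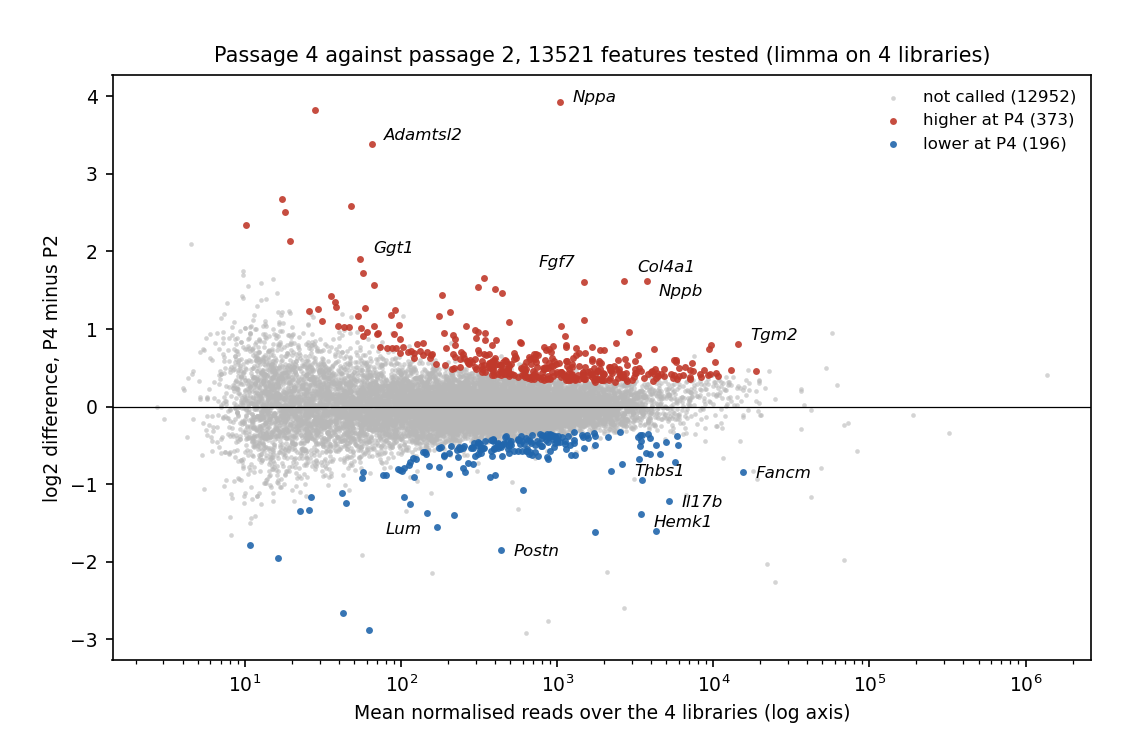
Log2 difference between P4 and P2 (vertical axis) against the mean normalised reads over the 4 libraries (horizontal log axis) for 13521 features; red points were called higher at P4 (373), blue points lower (196), grey points were not called. Nppa, at 3.93, stands above all other red points, and Postn, at -1.85, is the lowest of the labelled genes.

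Nppa, Nppb and Agt, which encode secreted hormones or their precursors, rose at this step. Nppa, the gene of the atrial natriuretic peptide that lowers blood pressure and blood volume, had 131 and 123 normalised reads in the P2 libraries and 1950.3 and 1959 in the P4 libraries. That is a 15.4-fold rise, or 3.93 ± 0.10 (SE) on the log2 scale, with a limma adjusted p of 4.4e-10. The rise stood far outside the difference between duplicates. Before the step, at P0, the gene had 8.71 and 1.44 normalised reads, and after it 6264 and 2837 at P6 and 2795 and 5958 at P10.

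Nppb, which encodes the related brain natriuretic peptide, had 1905 and 1770.2 normalised reads at P2 and 5745 and 5508 at P4, a 3.06-fold rise (log2 1.61 ± 0.08, limma adjusted p = 1.2e-06). Unlike Nppa it had 4234 and 1658 at P6 and 1599 and 3812 at P10, so that all 4 later libraries lay below P4. Agt encodes angiotensinogen, the precursor of the hormone angiotensin. It was at 0 in both P0 libraries, had 818 and 734 normalised reads at P2 and 1448 and 1452 at P4 (log2 0.90 ± 0.09, limma adjusted p = 0.00026). The 2 libraries of P6 (549 and 289) and of P10 (70.0 and 124) were all below those of P2, so the P4 values were the highest of the series.

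Of the receptors in the list, those for natriuretic peptides were not called. Npr1, the receptor for both natriuretic peptides, had 20.8 and 15.6 normalised reads at P2 and 7.92 and 16.3 at P4 (log2 -0.62, limma adjusted p = 0.42). Npr2, the receptor for the C-type peptide, had 110.4 and 142 against 109.8 and 107, and was not called either (limma adjusted p = 0.53). Rxfp1, the receptor for relaxin, was the other called gene of the list, with 305 and 279 at P2 and 415 and 385 at P4 (log2 0.45, limma adjusted p = 0.042). That call was lost without either P4 library, with an adjusted p of up to 0.19. Of the 10 tested genes in the list of peptide hormones and receptors, 4 rose (40%, against 2.76% of all features) and 0 fell. The median difference was 0.28.

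Among basement membrane genes, both tested chains of collagen IV rose, while the main laminin chains were not called. Col4a1, a chain of the type IV collagen network, had 1369.5 and 1267 normalised reads at P2 and 3920.3 and 4214 at P4, a 3.09-fold rise (log2 1.62 ± 0.09, limma adjusted p = 1.2e-06). Its partner chain Col4a2 rose from 54.2 and 50.3 to 119 and 120.0 (log2 1.18 ± 0.18, limma adjusted p = 0.0043). Both were much lower at P0, with 80.1 and 66.1 for Col4a1 and 5.23 and 4.31 for Col4a2, and at P6 and P10 each kept values above those of P2.

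Nid2, a nidogen that bridges collagen IV and laminin, rose from 75.0 and 62.6 to 129.6 and 124 (log2 0.88), a call that was lost without either P4 library (limma adjusted p up to 0.056). In all, 4 of 12 tested members of the basement membrane list rose (33.3%, against 2.76% of all features) and 0 fell. The median of the list was however -0.04, with the main laminin chains at or below 0. Lamb1 had a log2 difference of -0.06 (limma adjusted p = 0.81), Lama5 of -0.13 (0.65) and Lamc1 of -0.35 (0.072).

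Papln and Adamtsl2, secreted glycoproteins of the ADAMTS-like type that lodge in the matrix, were among the largest rises. Adamtsl2 had 7.29 and 14.5 normalised reads at P2 and 129.6 and 107 at P4, a log2 difference of 3.39 ± 0.31 (limma adjusted p = 0.00013). It was near 0 at P0 (0.87 and 0.00) and between 92.0 and 202 in the 4 later libraries. Papln rose from 149.97 and 177 to 458 and 580.4 (log2 1.66 ± 0.14, limma adjusted p = 5.8e-05). Ltbp1 and Ltbp2, which hold latent TGF-beta or elastic fibres in the matrix, also rose, Ltbp1 from 2606 and 2472 to 4061 and 4004 (log2 0.67) and Ltbp2 from 174 and 227 to 395 and 394 (log2 0.99). They were the 2 called members of 26 tested in TGF-beta and BMP signalling (7.69%, against 4.21% of all features).

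Of the few called genes in the interstitial matrix list, 3 fell and 1 rose. Postn, which encodes periostin, a matrix protein that binds integrins and collagen, fell from 739 and 626 normalised reads at P2 to 187 and 190.0 at P4. It fell by 1.85 ± 0.11 on the log2 scale (limma adjusted p = 4.7e-06), the largest fall among the named genes. The P0 libraries had 129 and 139, so that P2 was the highest passage and P4 was back near P0, with 117 and 115 at P6 and 100.4 and 72.6 at P10.

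Lum, which encodes lumican, a proteoglycan that spaces collagen fibrils, fell from 227 and 196 to 73.2 and 88.6 (log2 -1.38 ± 0.16, limma adjusted p = 0.00098). Like Postn it was highest at P2, and at P0 it had 4.36 and 1.44. Its call was lost with the P0 libraries in the fit (limma adjusted p = 0.080). Thbs1, which encodes the adhesive glycoprotein thrombospondin 1, fell from 3043 and 3439.8 to 1857 and 2016 (log2 -0.74, limma adjusted p = 0.0013). It had 12125 and 10022 at P0 and 719 to 1132 in the 4 later libraries, so P4 lay between earlier and later passages.

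Spp1, which encodes osteopontin, was the 1 called rise in that list, from 187 and 155 to 364 and 337 (log2 1.03). In all, 1 of 23 tested members of the interstitial and fibrillar matrix list rose (4.35%, against 2.76% of all features). Of the same 23, 3 fell (13.04%, against 1.45% of all features), and the median of the list was -0.04. Col3a1, the fibrillar collagen III chain, differed by -0.04 (limma adjusted p = 0.90). Fn1, fibronectin, differed by -0.31 (0.088) and Dcn, decorin, by -0.34 (0.067), while Col5a2, a collagen V chain, differed by 0.22 (0.22) and Sparc, a collagen-binding glycoprotein, by 0.42 (0.051). DESeq2 called Dcn (adjusted p = 0.012) and Sparc (0.0028). Leaving out P2 replicate 1 raised the count of called members of this list from 4 to 9.

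Some enzymes that cut or cross-link the matrix were higher at P4. Tgm2, a transglutaminase that cross-links matrix proteins, rose from 10628 and 10333 to 17880 and 18830 normalised reads (log2 0.81, limma adjusted p = 0.0014). Of 19 matrix proteases and inhibitors, 5 rose (26.3%, against 2.76% of all features) and 0 fell, with a median of 0.15. They were the metalloproteinases Mmp9 (log2 0.61), Mmp10 (0.77), Mmp12 (0.51) and Mmp19 (0.42), and the inhibitor Timp1 (0.43). Without P4 replicate 2 all 5 lost their calls, with limma adjusted p up to 0.20, and without P4 replicate 1 Mmp10 and Mmp19 did too. Tinagl1, a secreted matricellular glycoprotein, rose from 6913 and 7239.5 to 11842 and 12704 (log2 0.79), and Lgals3, the sugar-binding lectin galectin 3, from 5944 and 5828 to 8666 and 8671 (log2 0.56).

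**Figure D2:**
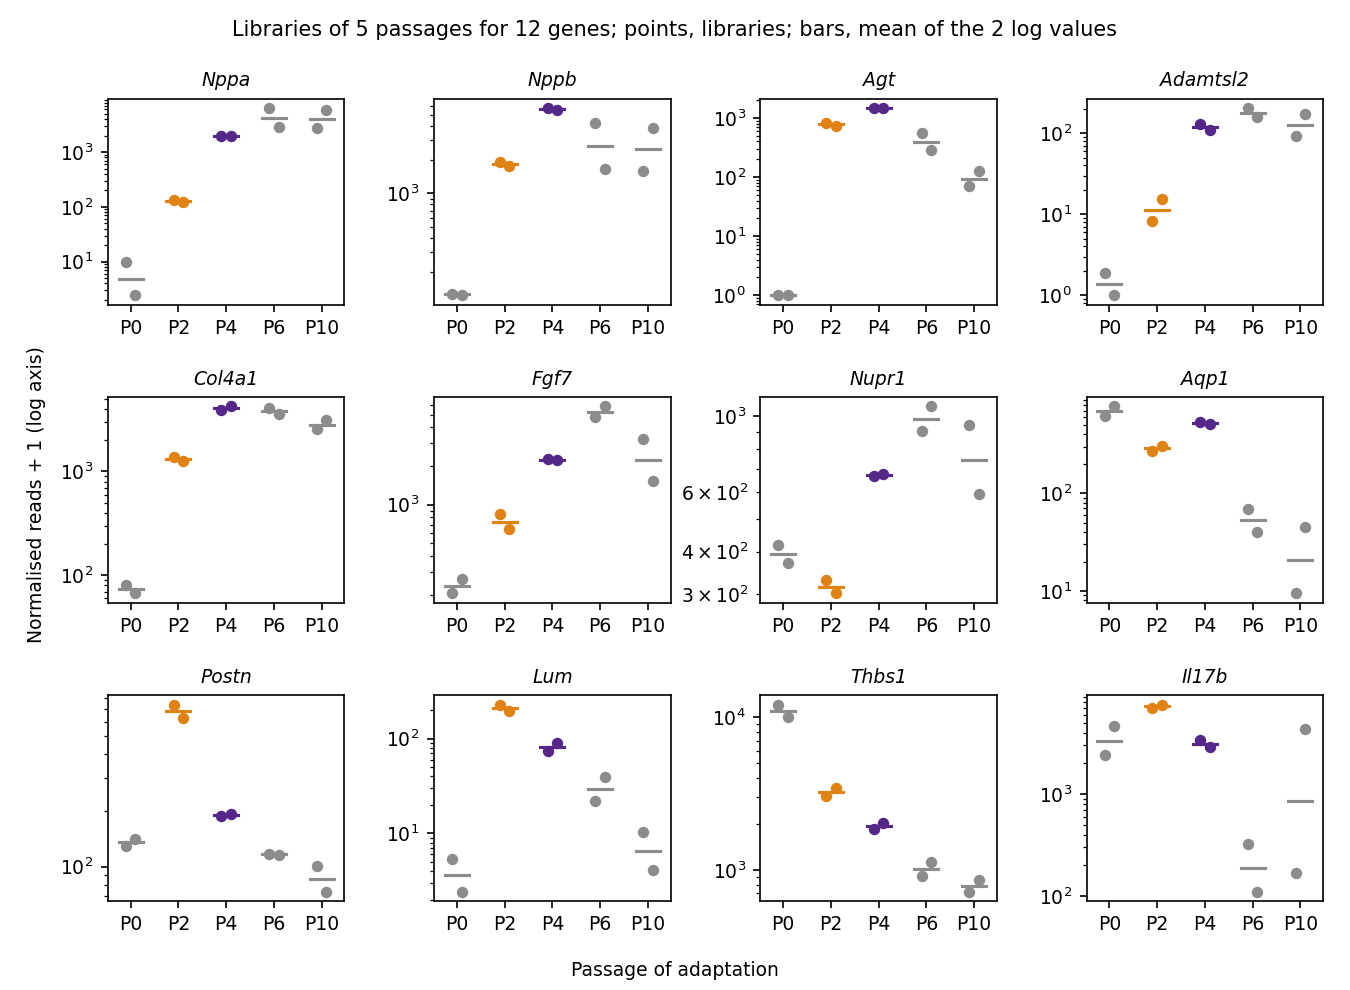
Normalised reads plus 1 (log axis) in each of the 10 libraries for 12 genes, by passage of adaptation; points are libraries, bars the mean of the 2 log values, with P2 in orange and P4 in purple. The P2 and P4 points do not overlap in any of the 12 panels, Nppa and Adamtsl2 step up by over 10-fold, and Postn, Lum, Thbs1 and Il17b step down.

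Adhesion and growth factor genes changed in part. Fgf7, the keratinocyte growth factor secreted by mesenchymal cells, rose from 843 and 643 normalised reads at P2 to 2247 and 2242 at P4 (log2 1.61 ± 0.11, limma adjusted p = 1.4e-05). It was higher still at P6, with 4810.4 and 5807, while the P10 libraries had 3244 and 1531. Ereg, the EGF receptor ligand epiregulin, rose from 1439 and 1222 to 2020.5 and 1979 (log2 0.59). It was the 1 called gene of 13 EGF family ligands and receptors (7.69%, against 4.21% of all features). Dkk3, a secreted relative of the Wnt inhibitors, rose from 3153 and 3121 to 5126 and 5352 (log2 0.74).

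Among surface proteins, the tetraspanins Cd82 and Tspan11, which organise adhesion receptors in the membrane, rose from 228 and 239 to 622 and 676 (log2 1.47) and from 119.8 and 127 to 282 and 298 (log2 1.23). Cgnl1, a cytoskeletal linker of cell junctions, rose from 211 and 203 to 597 and 596 (log2 1.52 ± 0.10, limma adjusted p = 1.3e-05) and had 793 to 1105 in the 4 later libraries. Jup, the junction plaque protein plakoglobin, rose from 52.1 and 54.8 to 115 and 142 (log2 1.24), whereas Dsp, the desmosomal linker desmoplakin, fell from 363 and 390.0 to 236 and 254 (log2 -0.62). Those 2 were the called members of 20 cadherin and junction genes (10%, against 4.21% of all features), 1 in each direction.

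Of 33 integrin and focal adhesion genes 4 rose (12.1%, against 2.76% of all features) and 0 fell, with a median of -0.01. They were Itga7 (log2 0.58) and Itgb5 (0.49), subunits that pair with partners to bind laminin and vitronectin, and Csrp1 (0.47) and Cav1 (0.36). The calls of Csrp1 and Cav1 were lost without either P4 library (limma adjusted p up to 0.18), while those of Itga7 and Itgb5 held in each of the 4 fits. Leaving out P2 replicate 1 raised the count in this list to 7.

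YAP and SRF are regulators that read cell shape and actin tension. Of 23 of their tested targets 4 rose (17.4%, against 2.76% of all features) and 1 fell (4.35%, against 1.45%). In the list 20 lay above 0, with a median of 0.18. Ccn2, a secreted matricellular protein, had 132 and 122 normalised reads at P2 and 232 and 263 at P4 (log2 0.95 ± 0.14, limma adjusted p = 0.0032). The receptor kinase Axl (log2 0.60), the actin-binding Tpm2 (0.66) and Ankrd1 (1.03) also rose, and Tead1, the DNA-binding partner of YAP, fell by 0.38 on the log2 scale. Ankrd1 and Tead1 lost their calls without either P4 library (limma adjusted p up to 0.208 and 0.135), and without P4 replicate 2 the list held 3 called members. Arpc1b, a subunit of the Arp2/3 complex that branches actin, rose from 8299 and 8221 to 12467 and 12118 (log2 0.57, limma adjusted p = 0.0062).

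Il17b, a cytokine of the interleukin 17 family, had 6994 and 7495 normalised reads at P2 and 3402 and 2858 at P4 (log2 -1.22 ± 0.10, limma adjusted p = 5.3e-05). It went on to 322 and 110.1 at P6, while the P10 libraries had 166 and 4373 and so differed by more than the step itself. The P0 duplicates of Il17b were also apart, with 2389 and 4667. Cxcl12, a chemokine of stromal cells, fell from 153 and 164 to 89.1 and 79.3 (log2 -0.91). Of the complement genes, C7 fell from 482 and 554 to 280.0 and 279.7 (log2 -0.88) and Hc, complement component 5, from 323 and 308 to 142 and 100.2 (log2 -1.39). Hc also differed between the duplicates of P0 (72.3 and 184) and of P10 (23.6 and 162). C3, the central complement protein, rose from 42.7 and 35.8 to 67.3 and 82.8 (log2 0.92), a call lost without P4 replicate 2. It was the 1 called gene of 25 in the interferon and inflammatory list (4%, near the 4.21% of all features).

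Several falls were in genes whose duplicates at P10 differed widely. Fancm, a DNA helicase of the Fanconi anaemia pathway, fell from 19371 and 20072 to 12114 and 9979 normalised reads (log2 -0.84 ± 0.12, limma adjusted p = 0.0025), and had 2599.8 and 14473 at P10. Hemk1, a methyltransferase of translation release factors, fell from 4971 and 4795 to 2611 and 1331 (log2 -1.39), with a gap between the P4 duplicates, and had 959 and 3526 at P10; DESeq2 did not call it (adjusted p = 0.066). Ptpn3, a tyrosine phosphatase, fell from 253 and 250.3 to 101 and 71.1 (log2 -1.56), and had 32.9 and 165 at P10. Kcnma1, a calcium-activated potassium channel, fell from 433 and 544 to 277 and 239 (log2 -0.91), and had 125 and 369.9 at P10. In each of these 4 genes P10 replicate 2 was the higher library. The P0 duplicates had 4868 and 9977 for Fancm, 105 and 208 for Ptpn3, and 242 and 496 for Kcnma1. Those of Hemk1 had 2036 and 1621. With the P0 libraries in the fit, Fancm (limma adjusted p = 0.13), Hc (0.073) and Kcnma1 (0.11) were no longer called.

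The other large falls were in Cntn3, a neural adhesion molecule (log2 -1.26), Nsf, an ATPase of vesicle fusion (-1.17), Gpr133, an adhesion receptor (-0.92), and Med24, a Mediator subunit (-0.89). Nsf had 154 and 136 normalised reads at P2 and 70.3 and 58.3 at P4, after 307 and 236 at P0, and was between 29.2 and 53.8 in the 4 later libraries. The call of Med24 was lost without P4 replicate 1 (limma adjusted p = 0.063) and that of Gpr133 without either P4 library (up to 0.12).

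Among the other large rises was Ggt1, the gamma-glutamyltransferase that breaks down extracellular glutathione, with 24.99 and 20.1 normalised reads at P2 and 75.2 and 99.1 at P4 (log2 1.90 ± 0.25, limma adjusted p = 0.0016). The later libraries had 103 to 168. Zdhhc11b rose from 26.0 and 41.4 to 96.97 and 103 (log2 1.57), but its P0 libraries had 32.2 and 99.2 and its P10 libraries 32.1 and 194. Its call was lost with the P0 libraries in the fit (limma adjusted p = 0.097). Heatr7b2 rose from 145 and 173 to 453 and 477 (log2 1.55) and stayed between 306 and 619 later.

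Immediate early genes are the first to answer serum and growth factors. Of 17 tested, 0 rose and 2 fell (11.8%, against 1.45% of all features), with a median of -0.10. Egr1 fell from 90.6 and 117 to 55.4 and 55.9 (log2 -0.88, limma adjusted p = 0.028) and Fos from 173 and 159.8 to 106 and 115 (log2 -0.58, limma adjusted p = 0.048). Fos was not called by edgeR (adjusted p = 0.051), and DESeq2 gave neither gene an adjusted p. Each call was lost in 3 of the 4 fits that left out 1 library, Egr1 except without P2 replicate 1 (adjusted p up to 0.072) and Fos except without P2 replicate 2 (up to 0.16). Nr4a1 and Nr4a3, at 792 and 703 and at 405 and 417 in the P0 libraries, were already low at P2 and were not called at this step (log2 -0.26 each, limma adjusted p = 0.62 and 0.75).

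ERK signalling induces its own inhibitors. Of 15 tested feedback inhibitors, Spred1 (log2 -0.59) and Spry2 (-0.36) fell and the phosphatase Dusp10 rose (0.56). That was 13.3% lower and 6.67% higher, against 1.45% and 2.76% of all features. Spred1 had 845 and 772 normalised reads at P2 and 536 and 537 at P4. Spry2 lost its call without either P4 library (limma adjusted p up to 0.215) and Dusp10 without P4 replicate 2 (0.135).

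Genes of the amino acid response, which the transcription factor ATF4 turns on when amino acids or protein folding run short, were the list with the most called members together with the ribosomal proteins. Of 31 tested, 10 rose and 0 fell, against a background of 2.76% higher, and 25 lay above 0, with a median of 0.22. Nupr1, a small stress-induced nuclear protein, had 329 and 301 normalised reads at P2 and 665 and 678 at P4 (log2 1.09 ± 0.10, limma adjusted p = 0.00013), and 589 to 1068 later. Slc6a9, a glycine transporter, rose from 89.6 and 125 to 235 and 246 (log2 1.17), and Asns, which makes asparagine, from 562 and 567 to 914 and 822 (log2 0.62).

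Smaller rises were seen in Atf4 itself (log2 0.41), in Ddit3, the CHOP transcription factor (0.57), in Shmt2 (0.46) and Mthfd2 (0.42) of mitochondrial one-carbon metabolism, in Psat1 (0.42) and Psph (0.39) of serine synthesis, and in Pycr1 (0.50) of proline synthesis. Phgdh, the first enzyme of serine synthesis, had 3401 and 3367 at P2 and 3993 and 4091 at P4 and was not called (log2 0.26, limma adjusted p = 0.099). The calls of Nupr1, Slc6a9 and Asns held whichever library was left out. The other 7 calls were each lost in at least 1 of them (limma adjusted p up to 0.30), and the list held 5 called members without P4 replicate 2. At P0 the levels of Atf4 (1641 and 1379.7), Ddit3 (512 and 542) and Asns (795 and 785) were above those of P2.

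Of 20 aminoacyl-tRNA synthetases, Sars (log2 0.43), Nars (0.35) and Yars (0.34) rose (15%, against 2.76% of all features) and 0 fell. All 3 lost their calls without P4 replicate 1 (limma adjusted p up to 0.255), and without P4 replicate 2 only Sars was called.

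NRF2 is the transcription factor that answers oxidative stress. Among 29 tested genes of this response, 6 rose (20.7%, against 2.76% of all features) and 0 fell. In the list 26 lay above 0, with a median of 0.20. Gstp1, a glutathione transferase, rose from 7304 and 6840.5 normalised reads to 11616 and 11954 (log2 0.74 ± 0.09, limma adjusted p = 0.0015). Hmox1, the haem-degrading oxygenase, rose from 1578 and 1413 to 2233 and 2759.9 (log2 0.73), and Slc7a11, the cystine importer, from 853 and 739 to 1211 and 1122 (log2 0.55). Txnrd1 (0.39), Blvrb (0.55) and Pgd (0.37) also rose. Those last 3 lost their calls without P4 replicate 2 (limma adjusted p up to 0.18), which left 3 in the list, while without P2 replicate 2 there were 9.

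Of 24 genes of glycolysis and lactate 4 rose (16.7%, against 2.76% of all features) and 0 fell, with a median of 0.16. Hk2, the hexokinase that traps glucose in the cell, rose from 628 and 699.6 to 1110.2 and 1115 (log2 0.75, limma adjusted p = 0.0012). Pfkl, a phosphofructokinase subunit, rose by 0.48 on the log2 scale, Pkm, pyruvate kinase, by 0.46 and Aldoa, an aldolase, by 0.40. The calls of Pkm and Aldoa were lost without either P4 library (limma adjusted p up to 0.19 and 0.17), leaving 2 in the list, and edgeR did not call Aldoa (adjusted p = 0.063). Of 17 hypoxia targets 0 were called by limma, against 4.21% of all features, so that 0 is near that share in a list of this size. At an unadjusted p under 0.05 limma had 3 of them, and DESeq2 called 1, with a median of 0.17. The limma count was not the same without P2 replicate 1.

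Most ribosomal protein genes had slightly higher values at P4. Of 67 tested, 60 lay above 0, against 6640 of all 13521 features. In the list 10 rose (14.9%, against 2.76% of all features), with 0 falls and a median of 0.19. The levels of individual members are uncertain, since these genes have many near-identical copies and the counting rule is not known. Rplp1, an acidic stalk protein, had 5137 and 5691 normalised reads at P2 and 7084 and 8441 at P4 (log2 0.52), Rpl18 had 3902 and 3929 against 5354 and 5168 (0.43), and Rpl28 692 and 842 against 1046 and 1252 (0.58). Rplp1, Rpl18 and Rpl28 were not called without P4 replicate 2 (limma adjusted p up to 0.17). Without that library the list held 1 called member and without P4 replicate 1 it held 4, while without P2 replicate 2 it held 20 and DESeq2 called 21. The genes together took 3.67% and 3.45% of all normalised reads at P2 and 4.13% and 3.92% at P4. That share also differed within later passages, at 3.76% and 2.67% in the P6 duplicates and 3.60% and 5.55% in the P10 duplicates.

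The genes called at this step also differed between duplicates of other passages, in a comparison chosen after the values were seen. Of the 373 genes called higher at P4, 287 (76.9%) were higher in P10 replicate 2 than in P10 replicate 1, against 50.3% of all tested features. Of the 196 called lower, 70 (35.7%) were higher there. P6 replicate 1 was above P6 replicate 2 in 329 of the 373 (88.2%) and in 52 of the 196 (26.5%), against 55.2% of all features. The 20 genes that fell by at least 2-fold were different, since 14 of them were higher in P10 replicate 2 and 15 in P6 replicate 1. Of the 10 called ribosomal protein genes, 9 were higher in P10 replicate 2 and 10 in P6 replicate 1. Of the 10 called genes of the amino acid response, 9 were higher in P10 replicate 2 and 9 in P6 replicate 1, and of the 31 tested, 30 were higher in P10 replicate 2. A split of the same kind was present between the P0 duplicates: replicate 2 was above replicate 1 in 242 of the 373 (64.9%) and in 68 of the 196 (34.7%), against 46.2% of all features.

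When the summed share of the ribosomal protein genes entered the 10-library fit as a covariate, limma called 14 features, of which 13 were among the 61 called at least 2-fold and 1 was among the 508 smaller ones. Those with a gene name were Nppa, Nppb, Adamtsl2, Col4a1, Fgf7, Cgnl1, Cd82, Heatr7b2 and Nupr1, which were higher, and Postn and Fancm, which were lower. Of the amino acid response list, Nupr1 alone was called in that fit. Aldoa had a log2 difference of -0.03 there and Rplp1 of -0.04, but Rplp1 is itself part of the summed share, so the fit takes up its difference by construction. How far the small differences of the step move with what separates these duplicates was not tested.

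**Figure D3:**
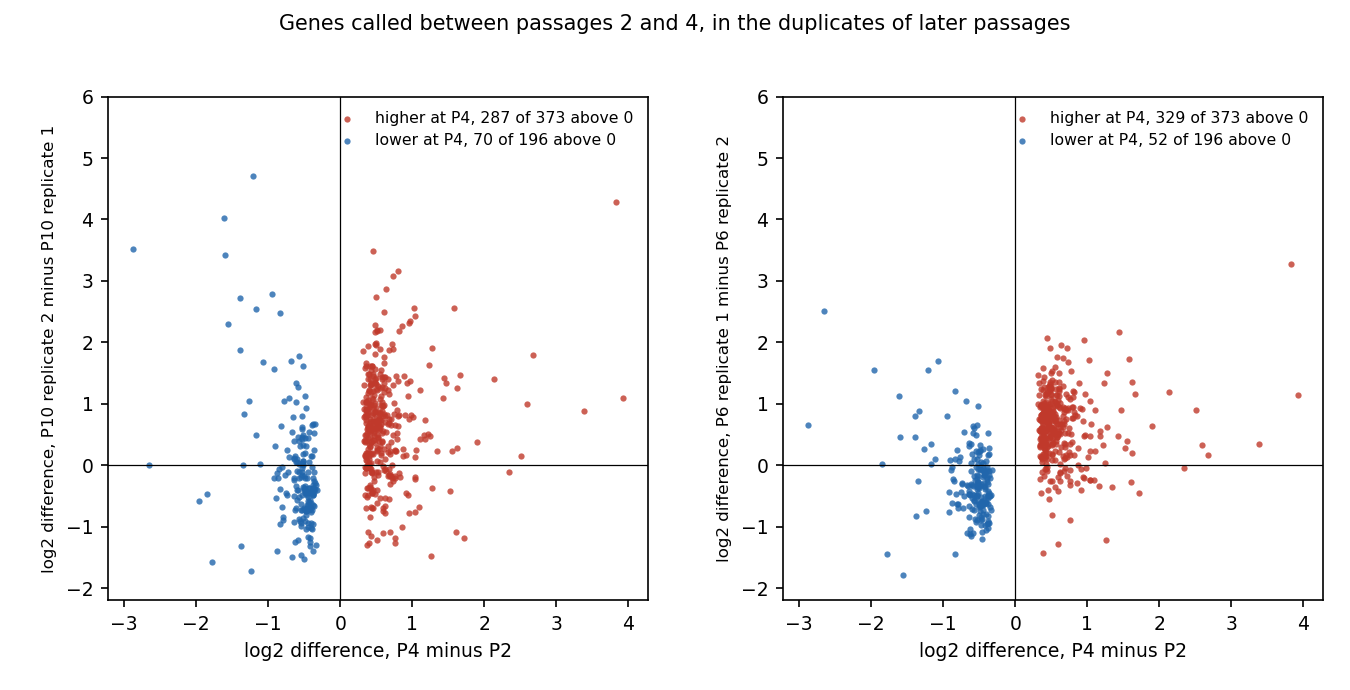
For the 569 genes called between P2 and P4, the log2 difference of the step (horizontal axis) against the log2 difference between the 2 libraries of P10 (left) and of P6 (right); red genes were higher at P4, blue genes lower. In both panels most red points lie above 0 and most blue points below, apart from the strongly falling genes at the left edge.

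Water and ion balance genes split. Aqp1, a water channel, rose from 273 and 304 normalised reads at P2 to 536 and 512 at P4 (log2 0.86 ± 0.11, limma adjusted p = 0.0013), after 625 and 773 at P0, and then had 68.9 and 39.3 at P6 and 8.44 and 44.5 at P10. P4 was thus the last passage at which it was high. Aqp3, a channel for water and glycerol, rose from 43.7 and 51.4 to 96.0 and 87.4 (log2 0.94), a call lost without either P4 library (limma adjusted p up to 0.089). Wnk1, a kinase that senses chloride and controls ion transport, fell from 1553 and 1401 to 975 and 939 (log2 -0.62), and Nfat5, the transcription factor of the response to high salt, from 1555 and 1372 to 1109 and 1064 (log2 -0.43), the latter not called without P4 replicate 2 (limma adjusted p = 0.14). The list of 22 thus held 2 rises and 2 falls (9.09% each, against 2.76% and 1.45% of all features), with a median of -0.03.

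The share of cell cycle genes called was near that of all features (4.21%). Of 44 genes of DNA replication (2.27% called), Rrm2, a subunit of ribonucleotide reductase, rose (log2 0.36) and 0 fell, with a median of -0.02, and the call of Rrm2 was lost without either P4 library (limma adjusted p up to 0.22). Of 32 genes of G2 and M phase (3.13% called), Mki67, the proliferation marker, fell from 1494 and 1639.5 to 993 and 1032 (log2 -0.63 ± 0.09, limma adjusted p = 0.0025) and 0 rose, with a median of -0.05. With the P0 libraries in the fit, Mki67 was not called (limma adjusted p = 0.071), and in both P6 and P10 its duplicates differed widely (1408 and 3050.1, 3189.6 and 1343). Plk2 was the 1 called member of 15 cell cycle inhibitors and p53 targets (6.67%, against 4.21% of all features). Its log2 difference was -0.49, and that call was lost without P4 replicate 2.

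Small numbers of genes rose in the secretory and degradative systems, 6.06% of N-glycosylation genes, 9.38% of lysosomal genes and 9.09% of ER chaperone and unfolded protein response genes, against 2.76% of all features. Of 33 N-glycosylation genes 2 rose, Dad1 of the oligosaccharyltransferase (log2 0.62) and Nans of sialic acid synthesis (0.36), and of 32 lysosomal genes 3 rose, Neu1, a sialidase (0.76), Ctsz (0.42) and Cd68 (1.04). Neu1 had 929 and 1030.4 normalised reads at P2 and 1576 and 1739 at P4 (limma adjusted p = 0.0012). Creld2 (0.44) and Manf (0.34) rose among 22 ER chaperone and unfolded protein response genes. Nans, Ctsz and Manf lost their calls without either P4 library, Cd68 without P4 replicate 2 and Creld2 without P4 replicate 1, with limma adjusted p between 0.098 and 0.30.

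Of the lipid lists, 11.1% of cholesterol synthesis genes, 7.14% of sterol sensing and LDL uptake genes and 11.1% of fatty acid uptake and lipid droplet genes were called, against 4.21% of all features. Fdps (log2 0.33) and Ebp (0.38) rose among 18 genes of cholesterol synthesis and Npc2 (0.36) among 14 of sterol sensing and LDL uptake. All 3 lost their calls without either P4 library (limma adjusted p up to 0.21). Among 18 genes of fatty acid uptake and lipid droplets, Fabp4, a fatty acid carrier, rose (0.50) and Lpl, lipoprotein lipase, fell (-0.45), which were lost without P4 replicate 1 (limma adjusted p = 0.059) and P4 replicate 2 (0.092). Cd36, a fatty acid receptor that had 48.8 and 71.9 normalised reads at P0, stayed level at this step with 3658 and 3245 at P2 and 3796 and 3273 at P4 (log2 0.03, limma adjusted p = 0.89).

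No member was called among 9 genes of fatty acid synthesis, 16 cytosolic and mitochondrial chaperones, 27 proteasome subunits and 12 genes of the insulin and IGF axis, with medians between -0.08 and 0.01. Of all features 4.21% were called, so a count of 0 in lists of these sizes is near that share. Igfbp4, a binding protein of the insulin-like growth factors that had 5475 and 3752 normalised reads at P0, was at 818 and 1084 at P2 and 667 and 859 at P4, and its libraries overlapped (log2 -0.31, limma adjusted p = 0.22). At an unadjusted p under 0.05 limma had 1, 4, 4 and 5 members of these lists, in that order. DESeq2 called 2 of the insulin and IGF genes, and without P2 replicate 2 limma called 3 of them and 2 proteasome genes. Of 43 lists, 35 held at least 1 called member. The lists had up to 67 tested genes and 4.21% of all features were called. At that share many lists would hold a called member, so this count is no result on its own.

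**Figure D4:**
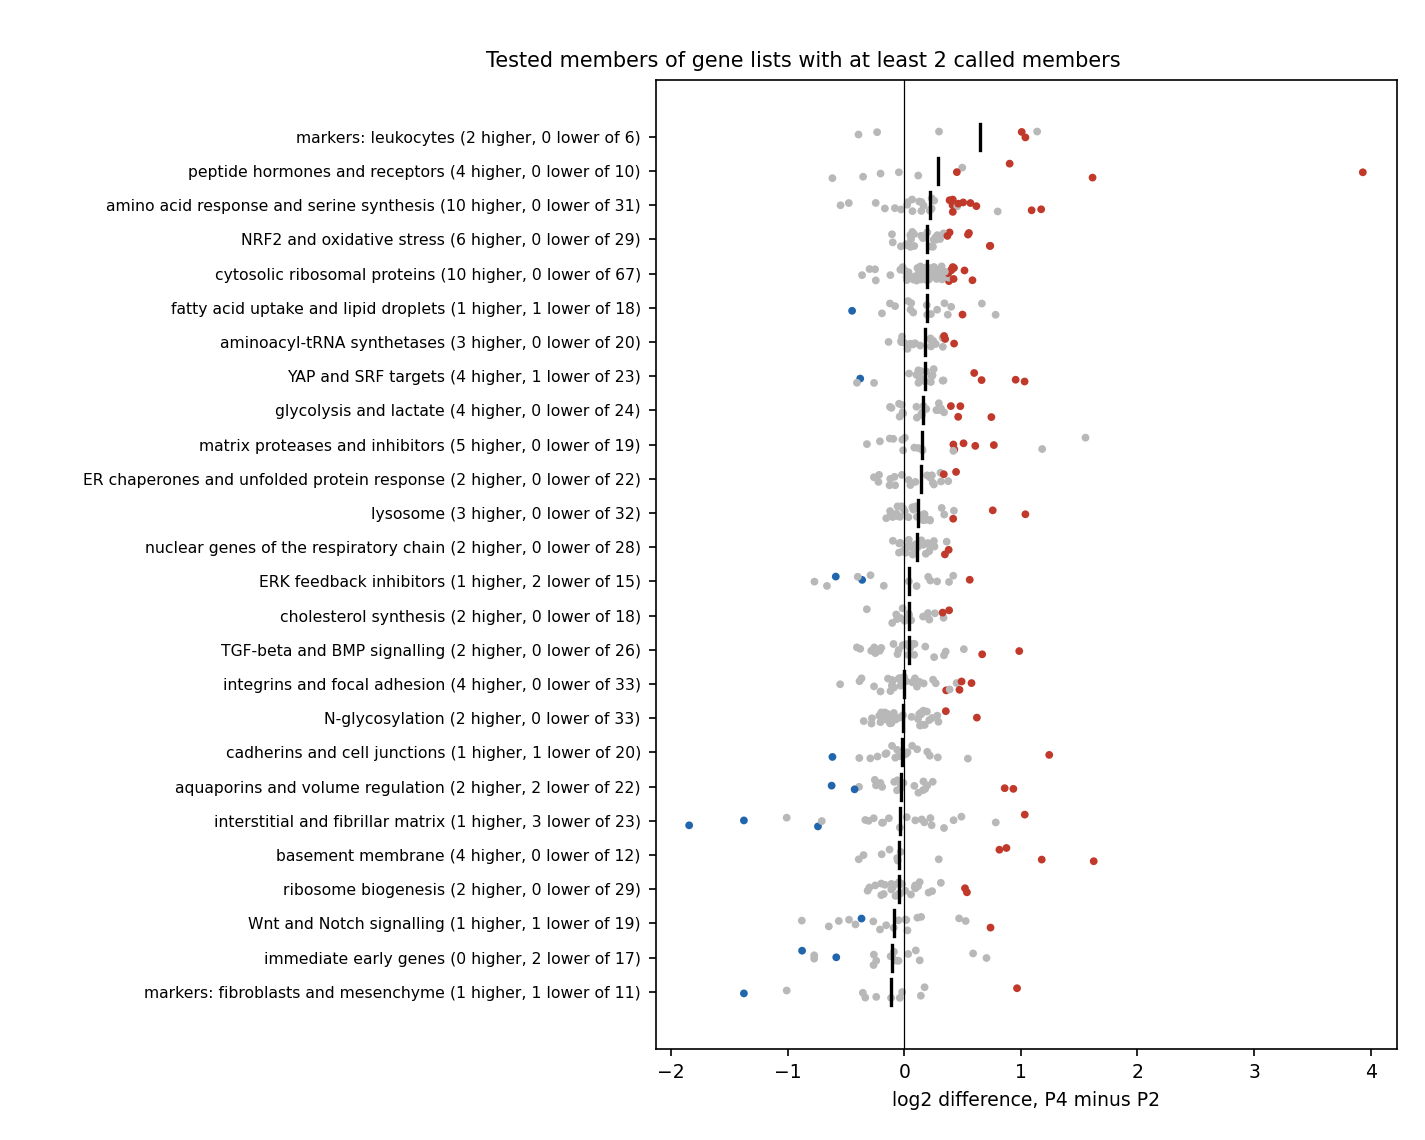
Log2 difference between P4 and P2 for the tested members of each list with at least 2 called members; red members were called higher at P4, blue lower, grey not called, and the black bar is the list's median. The largest median is that of the 6 leukocyte markers (0.65), and the amino acid response has 10 red points and 0 blue ones.

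Markers of other cell types were mostly low or absent. Of 16 matched leukocyte markers 11 had a mean under 10 normalised reads over the 4 libraries, and the T cell gene Cd3e and the monocyte gene Cd14 were at 0. Of the 6 tested, Cd68 rose from 40.6 and 45.8 to 82.1 and 97.9 (log2 1.04), and Itgax, an integrin of myeloid cells, from 37.5 and 35.8 to 71.2 and 78.1 (log2 1.01). Both calls were lost without P4 replicate 2 (limma adjusted p = 0.125 and 0.139). These 2 genes were 33.3% of the tested leukocyte markers, against 2.76% of all features called higher. The summed level of the list was 229 and 231 at P2 and 326 and 360.1 at P4. The pan-leukocyte gene Ptprc stayed at 13.5 and 20.1 against 11.9 and 12.8.

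The summed level of the 11 endothelial markers, 18460 and 15846 at P2 and 16332 and 28814 at P4, was almost all Stab2 (18284 and 15666, then 16165 and 28647, not called), and Cldn5 was at 0. The sum of 10 epithelial markers was 268 and 305 at P2 and 274 and 211 at P4, most of it the cadherin Cdh1. The sum of 14 fibroblast and mesenchymal markers was 73330 and 71985 at P2 and 69504 and 71425 at P4, with Thy1 at 0. Among these, S100a4 rose from 2042 and 1869 to 3983 and 3662 (log2 0.97, limma adjusted p = 0.00013) and Lum fell. Of the 7 tested ovarian markers 1 was called (14.3%, against 4.21% of all features). It was Star, the cholesterol carrier of steroid synthesis, which rose from 1127 and 991 to 1775 and 1639 (log2 0.69, limma adjusted p = 0.0021). The part of these markers in the other differences was not tested, and in bulk RNA a change in the mix of cells and a change per cell cannot be told apart.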

How the data were processed

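RNA was measured by sequencing of ribosomal-RNA-depleted, stranded libraries of CHO-K1 cells. Values in the deposited table are a signal, read counts per feature that the authors normalised with DESeq, per the submitters' processing notes. Not given in the sources used here are its version, the aligner, the counting rule, the build and the annotation. Deposited values are whole multiples of a step in each library (all within 0.01 reads), which gives back whole reads. For P4 replicate 1 that step (0.989) is so near 1 that an automatic check of units did not accept this reading, so the count-based alternatives rest on it, while the main test does not. Duplicates differed by more than counting noise in each passage.

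Features with a mean of at least 10 over the 10 libraries were tested (13521 of 25156, of which 3625 had no read). Log2(value + 1) of the 4 libraries of P2 and P4 was fitted with limma 3.58.1 in R 4.3.3, a trended prior and Benjamini-Hochberg adjustment over all 13521 at 0.05, two-sided. Folds on that scale understate the change of low genes. Reads per gene are not corrected for length, so levels were not compared between genes. Alternatives included all 10 libraries, the 6 of P0 to P4, each library left out, edgeR 4.0.16 and DESeq2 1.42.0 on recovered reads. A fit without P6 replicate 2 and P10 replicate 1 and a fit with the ribosomal protein share as covariate were added after the data were seen. Where a fit leaves 1 library in a passage, that library is assumed to vary like the other passage. The limma, edgeR and DESeq2 fits of the 4 libraries were tested on simulated data, and the other alternatives were not.

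Gene numbers were given symbols from RefSeq (CriGri-PICRH-1.0). Whether the authors used that assembly is unknown, so no coordinates, lengths or sequences are given. The passages compared, the 43 gene lists (1117 entries, 990 matched, 874 tested) and the named genes were chosen with earlier results of these data known, so that no list is independent evidence. Named genes were the 14 largest rises and falls among called features with a symbol, a mean of at least 50 and no overlap, the 8 called features with the highest values at an absolute log2 difference of at least 0.5, up to 4 called members with the smallest p per list, and 12 genes that earlier results describe at other passages. Npr1, Npr2, Phgdh, laminin chains and other uncalled list members, Mthfd2, Psat1, Psph, Pycr1, Atf4, Ddit3, Txnrd1, Pgd, Ankrd1 and Mmp10 are named outside that rule, as are Dym, Stab2 and the markers. The values of a called gene that the rule picked are not reported here.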

Additional observations from a re-analysis of the deposited data

How the results depend on the processing

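The count of called features, 569 with 61 of them at least 2-fold apart, moved with the estimate of the spread. In the order called and called at 2-fold, limma gave 0 and 0 with all 10 libraries, 219 and 36 with the 6 libraries of P0 to P4, 220 and 37 with 8 libraries (leaving out P6 replicate 2 and also P10 replicate 1), 14 and 14 with the ribosomal protein share as a covariate, and 1 and 1 without the trend in the prior. Leaving out 1 library gave 211 to 1640 and 47 to 128. With no filter on low values 307 features were called, and with a mean of at least 50 there were 39 at 2-fold. DESeq2 on recovered reads gave 18 at 2-fold, where a feature without an adjusted p counts as not called. Of the 110 called genes that the rule picked, DESeq2 called 85 and did not call 5. It gave the rest no adjusted p, so that its count does not depend on the spread alone. Pseudocounts of 0.5 and 5, TMM scaling, median centring and edgeR gave between 526 and 597 called. Same-numbered libraries of P2 and P4 shared little beyond their number: their deviations correlated at 0.086 across genes. The replicate block called 1270 features in the 4-library fit (77 at 2-fold) and 0 (0 at 2-fold) in the 10-library fit. The cause of these shifts was not tested. Of the 110 called genes that the rule picked, 2 changed sign in any fit, Rplp1 (log2 -0.036) and Aldoa (-0.028), both with the ribosomal protein share, to which Rplp1 itself belongs, as a covariate. TMM scaling and median centring moved the median of all features by under 0.01, and none of those 110 genes changed sign with them. Of the 110, 2 lost their call with TMM scaling and 7 with median centring. With 2 libraries a passage, the smallest difference called was 0.32 on the log2 scale, and few genes under 50 normalised reads could be called (0.814%).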

Other observations

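Among the called falls were 16 genes of chromatin, transcription and RNA processing, picked from them after the values were seen, so that their direction follows from the choice and no share of all such genes is known. They included Srrm2, a scaffold of nuclear speckles, with 1563 and 1675 normalised reads at P2 and 1177 and 1337 at P4, the RNA helicase Dhx9 (1709 and 1779 against 1244 and 1174), and the kinase Cdk12, which acts on RNA polymerase II during elongation (738 and 687 against 481 and 479). Med1 of the Mediator complex, the histone methyltransferases Setd2 and Mll1, and Nipbl, which loads cohesin on chromatin, had differences of -0.47, -0.47, -0.47 and -0.34. Srrm2 and Dhx9 were higher at P0 than at P2, with 5332 and 3359 for Srrm2 and 2781 and 2064 for Dhx9. These genes also differed between the later duplicates: all 16 were higher in P6 replicate 2 than in P6 replicate 1, and 14 of 16 were higher in P10 replicate 1 than in P10 replicate 2, as Cdk12 with 811 and 442. The part of those library differences in the falls was not tested.

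Some named genes had their highest values at 1 of these passages. Agt and Tspan11 were higher at P4 than in any other of the 10 libraries, with 282 and 298 normalised reads for Tspan11 at P4 and at most 164 elsewhere. Postn, Lum and C7 had their highest values at P2, with 482 and 554 normalised reads for C7 at P2 and 61.0 and 61.8 at P0.

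Over the 373 genes called higher at P4, 274 (73.5%) had a higher mean at P10 than at P0, against 50.2% of all tested features. Of the 196 called lower, 27 (13.8%) did. These 2 passages share no library with the step, but the comparison was chosen after the values were seen.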
